A study of Mus musculus with 8 samples.

Results

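The regions described here are the YTHDF3-bound RNA regions that carry the name of 1 of 10 genes of the Wnt pathway in the deposited peak annotation: Frat1, Frat2, Bcl9, Bcl9l, Axin1, Axin2, Apc, Ctnnb1, Lrp5 and Lrp6. Merging the peaks of the 4 libraries wherever they shared 1 bp or more gave 39979 regions, of which 55 bore 1 of these names. Of the 6531 regions called in all 4 libraries, 22 belonged to these genes, and they came from 5 of the 10 genes. The genes were chosen with earlier results of these data in view, in which a Frat2 region and a Bcl9l region had a lower IP/input fold after starvation in both replicates; the core pathway genes stand beside them by name. The values of those 2 regions are therefore given as a description, and no test of them counts as support.

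The data come from RNA immunoprecipitation sequencing (RIP-seq) of YTHDF3, a reader protein of N6-methyladenosine (m6A) in RNA. Wild type C57BL/6 mouse embryonic fibroblasts (MEFs) from embryos of day 13.5, at passages 5 to 6, were kept in normal medium or starved of nutrients for 2 h in a balanced salt solution. RNA bound by an antibody against endogenous YTHDF3 (IP) and input RNA without antibody were sequenced, with 2 replicates of each in each condition, 8 libraries in all. The comparison asks which RNAs YTHDF3 held more or less of after starvation. The labels do not say whether replicates came from separate embryos or cultures, so differences between them may be technical. The lists give reads inside called peaks alone, so total library depth is unknown. Normal replicates 1 and 2 held 8818619 and 14397476 IP reads, and starved replicates 1 and 2 held 15715472 and 19271667. Input reads in the same order were 2634685, 5157523, 2507434 and 4475345. Of 15 fibroblast marker genes 9 had a peak in at least 1 list, against 1 of 5 epithelial, 0 of 6 blood and immune and 1 of 4 endothelial markers. In all 4 lists it was 5 of 15 fibroblast, 0 of 5 epithelial, 0 of 6 blood and immune and 1 of 4 endothelial markers. Col1a1, Vim, S100a4, Dcn, Lum and Twist1 had no peak, which says only that they were not enriched over input.

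Canonical Wnt signalling runs through β-catenin, the product of Ctnnb1. Without ligand, a destruction complex built on the scaffolds Axin1 and Axin2 and on Apc holds β-catenin for phosphorylation by GSK3 and degradation; a Wnt ligand engages a Frizzled receptor with the co-receptors Lrp5 or Lrp6, and the complex is taken apart. Frat1 and Frat2 bind GSK3 and compete with Axin for it, while Bcl9 and Bcl9l bridge β-catenin to Pygopus proteins in the nucleus and so help transcription of target genes.

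Stretches of 5 regions are printed because they are where peaks of all 4 lists coincided: the Frat2 region and the region named Bcl9l, whose fold fell most, and coding parts of Bcl9l, Bcl9 and Lrp6 for contrast. All are written 5′ to 3′ on the transcribed strand of the named gene, from mm10, with GGAC, the core of the m6A motif, in capitals. The Frat2 stretch lies at chr19:41847761-41847911 on the minus strand and starts at the start codon. The next lies at chr9:44478141-44478360 on the plus strand, in an exon of the long non-coding RNA C030014I23Rik, and not in Bcl9l. The others are coding sequence of Bcl9l at chr9:44500838-44501037 on the plus strand, Bcl9 at chr3:97209498-97209697 on the minus strand and Lrp6 at chr6:134507387-134507586 on the minus strand.
Frat2: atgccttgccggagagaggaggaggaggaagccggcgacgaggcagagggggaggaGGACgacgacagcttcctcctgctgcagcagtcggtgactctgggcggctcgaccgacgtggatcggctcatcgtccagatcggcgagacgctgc
C030014I23Rik: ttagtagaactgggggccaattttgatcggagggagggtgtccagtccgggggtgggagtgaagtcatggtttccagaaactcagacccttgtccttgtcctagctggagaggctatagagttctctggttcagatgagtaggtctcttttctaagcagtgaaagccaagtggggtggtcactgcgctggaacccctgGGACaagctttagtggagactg
Bcl9l: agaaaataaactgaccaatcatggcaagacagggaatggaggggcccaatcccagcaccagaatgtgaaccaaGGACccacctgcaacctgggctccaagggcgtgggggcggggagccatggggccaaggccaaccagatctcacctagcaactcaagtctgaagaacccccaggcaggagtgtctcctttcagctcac
Bcl9: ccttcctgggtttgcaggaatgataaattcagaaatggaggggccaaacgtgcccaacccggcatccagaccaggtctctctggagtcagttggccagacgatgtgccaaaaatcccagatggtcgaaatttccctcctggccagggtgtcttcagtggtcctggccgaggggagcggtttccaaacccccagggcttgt
Lrp6: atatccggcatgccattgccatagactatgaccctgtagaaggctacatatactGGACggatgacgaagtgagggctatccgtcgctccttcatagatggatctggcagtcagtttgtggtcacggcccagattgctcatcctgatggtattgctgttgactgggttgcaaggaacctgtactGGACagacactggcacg
The Frat2, C030014I23Rik and Bcl9l stretches each held 1 GGAC, the Lrp6 stretch held 2 and the Bcl9 stretch held 0. A GGAC is a match of letters and not a measured m6A site.

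Not every region lay in the gene it was named for. The annotation names a peak for the nearest transcription start, and by overlap with annotated exons 41 of the 55 regions lay in an exon of the named gene, 5 in an intron, 6 in exons of another gene and 3 between genes. Of the 22 regions called in all 4 lists, 20 touched an exon of their own gene. The largest gap between name and place was at Frat2, where 10 regions bore the name and only 2 lay in the gene: 5 lay in exons of Rrp12, a ribosome biogenesis gene that ends 14719 bp upstream of Frat2, and 3 lay between both genes. Conversely, 51 regions in exons of the 10 genes bore another name, because a neighbour's start was nearer. Of these, 23 lay in Lrp6 and were named Bcl2l14, 11 lay in Lrp5 and were named Ppp6r3, 9 lay in Apc and were named Srp19, 7 lay in Axin1 and were named Pdia2, and 1 lay in Ctnnb1. Counted by exons, the genes had 92 regions, 25 of them called in all 4 lists.

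**Figure D1:**
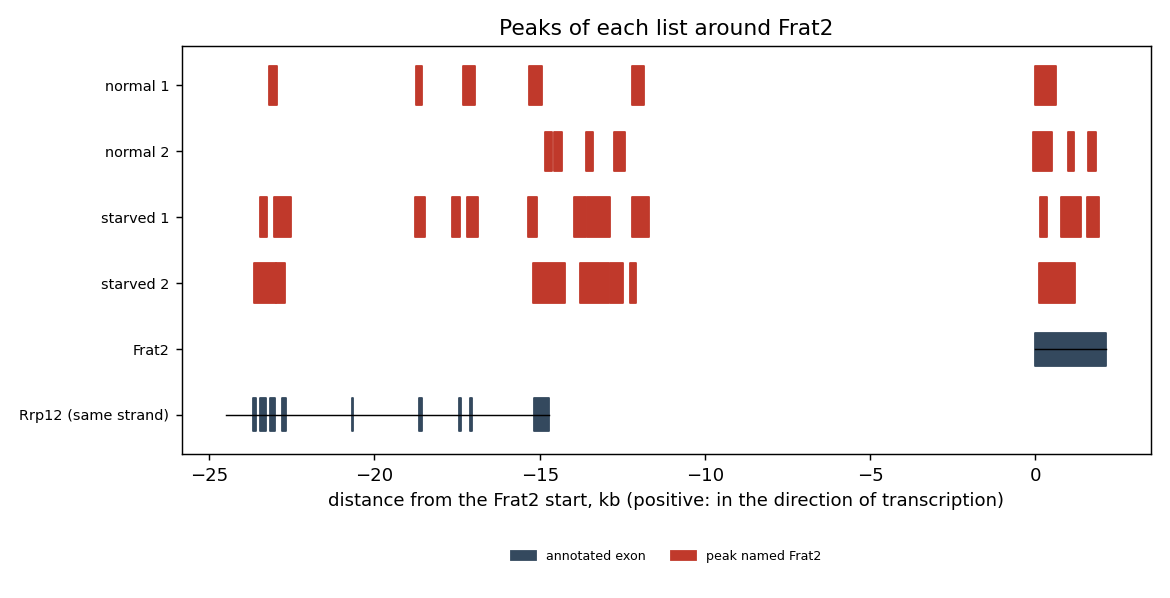
Position of each peak around Frat2, in kb from its start, with 1 row for each of the 4 lists and annotated exons below. Every peak drawn bears the name Frat2, but those to the left of 0 lie over Rrp12 or between both genes, and only those at the right end lie in the single exon of Frat2.

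Frat2, an inhibitor of GSK3 made from a gene with 1 exon, showed the largest fall of the IP/input fold among these regions. The region, chr19:41846741-41848190, covered 1392 bp of the exon and 693 coding bases. Its peaks held 45 and 52 IP reads in normal replicates 1 and 2, against 231 and 325 in starved replicates 1 and 2. Input reads numbered 2 and 2 in the normal and 27 and 68 in the starved replicates. Both counts were thus higher in the starved libraries, and the input count by more. These counts are not scaled for depth, and the starved lists held more IP reads in all. The ratio of IP to input, scaled by the factors of the peak caller, was 18.1 in normal replicate 1 with a 95% exact interval of 4.74 to 154, and 26.0 in normal replicate 2 with an interval of 6.84 to 220. It was 3.67 (2.46 to 5.68) in starved replicate 1 and 3.19 (2.45 to 4.20) in starved replicate 2. The intervals cover counting error only; they overlapped within replicate 1 and did not overlap within replicate 2, and the normal ones are wide because 2 input reads carry them.

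The fold of a region was taken from its peak with the highest fold, with input set to at least 3 reads. On that scale the log2 IP/input fold of Frat2 was 3.60 and 3.58 in the normal and 1.90 and 1.67 in the starved replicates, so that the change was -1.70 in replicate 1 and -1.91 in replicate 2. The 2 starved values lay below both normal values. With a mean of -1.80, the region ranked 2 of 6531 from the lowest. Because both normal folds rest on the floor of 3 input reads, the mean was -2.89 with a floor of 1 read, and it was -1.88 with 3 on the deposited scale, a setting added after the data were seen. The peaks did not cover the same part of the exon in each list: the covered length held 72.6 and 68.4 IP reads per kb in the normal and 285 and 293 in the starved lists, and 3.23, 2.63, 33.3 and 61.3 input reads per kb in the same order. In a bulk sample, more cells with the transcript and more transcript in each cell cannot be told apart.

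The other Frat2-named regions were weaker or lay elsewhere. The second region in the gene, in its 3′ UTR, was called in normal replicate 2 with 13 IP reads and no input read and in starved replicate 1 with 72 IP and 6 input reads. Of the 8 regions outside the gene, only the one over the end of Rrp12 was called in all 4 lists, with log2 folds of 1.35 and 1.90 in the normal and 1.32 and 1.72 in the starved replicates. Its changes of -0.04 and -0.18 were small beside the gap of its normal replicates. The 3 regions between both genes could each be compared in 1 replicate, with changes of -0.12, 0.09 and 0.08. Of the other regions in Rrp12, those called in both lists of replicate 1 changed by -0.44, 0.45 and 0.26. The last one, with 58 bp of exon, was called in starved replicate 1 alone with 56 IP and 6 input reads, a log2 fold of 2.00.

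Frat1, the paralogue 13389 bp away on the opposite strand, had 3 regions, all in its single exon and all called in starved lists alone. The coding region was called in starved replicate 1 with 65 IP and 5 input reads, and the start of the 3′ UTR in the same list with 76 IP and 11 input reads. The end of the 3′ UTR was called in both starved lists, with 23 and 27 IP reads and no input read. Frat1 and Frat2 aligned with 90.3% identity over 638 bp at their 5′ ends, so reads from that part may have been split between them, and how such reads were counted is not given in the sources used here. Absence from a list means that no peak passed the caller's limits there, not that no RNA was bound.

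**Figure D2:**
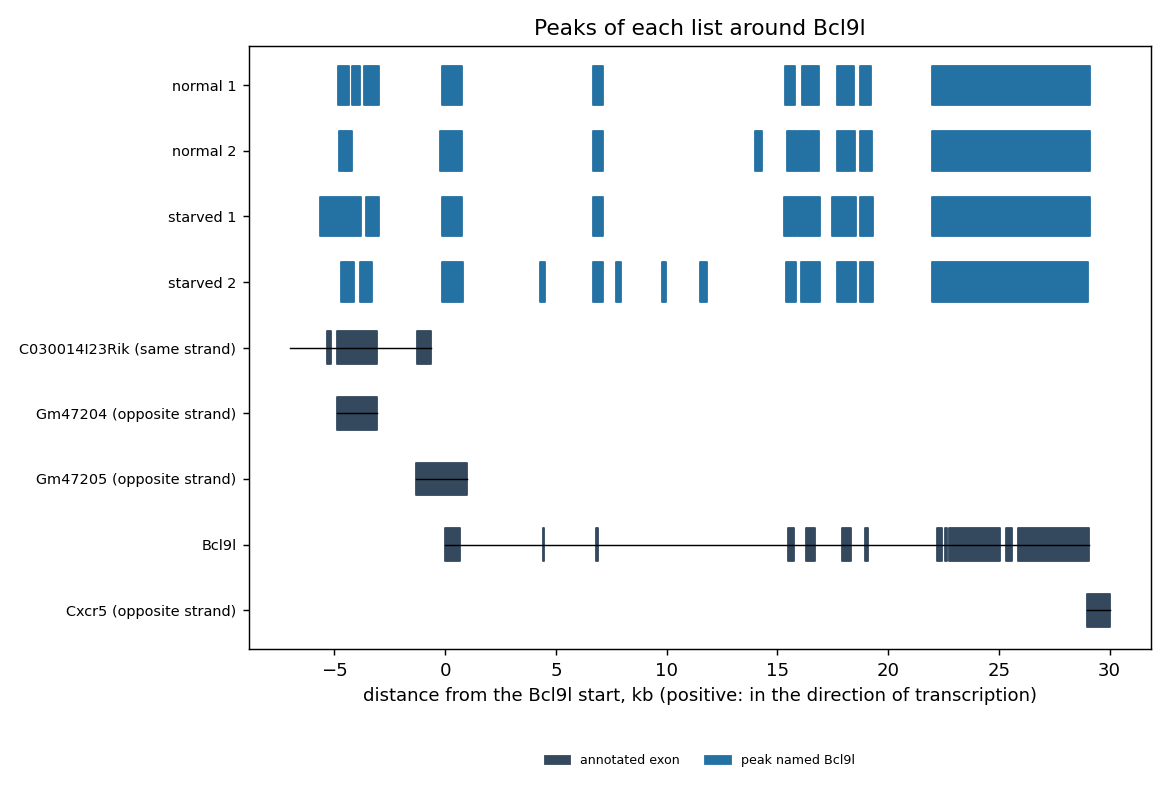
Position of each peak around Bcl9l, in kb from its start, with 1 row for each of the 4 lists and annotated exons of the genes below. The peaks left of 0 lie in exons of C030014I23Rik and Gm47204, and the long block at the right covers the last exons of Bcl9l in all 4 lists.

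The region named Bcl9l with the second largest fall among these regions was not in Bcl9l. It spanned chr9:44477161-44479860, ended 2965 bp before the start of Bcl9l, and lay over 1986 bp of exons of C030014I23Rik on the plus strand and 1832 bp of Gm47204 on the minus strand, both annotated as long intergenic non-coding RNAs. The library kit keeps strand, but whether the counting used it is not stated, so the overlapping RNAs cannot be told apart. The region held 247 and 92 IP reads in the normal and 918 and 357 in the starved replicates, with 40, 21, 90 and 85 input reads in that order. The log2 folds of its highest peaks were 3.48 and 3.17 in normal and 2.22 and 1.54 in starved cells, a change of -1.25 and -1.63. The starved values again lay below both normal ones, and the mean change of -1.44 ranked 6 of 6531 from the lowest.

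The difference was smaller over the whole region than in its highest peaks. With all reads of the region summed, the ratios were 4.98 (95% exact interval 3.55 to 7.14) and 4.38 (2.70 to 7.41) in the normal and 4.37 (3.52 to 5.49) and 2.80 (2.20 to 3.59) in the starved replicates. The interval of starved replicate 1 lay within that of normal replicate 2, and the mean log2 change was -0.42. Of the peaks of these genes, 166 were kept and 2 were not, both in this region, with p of 0.000113 and 0.000383 against a limit of 0.0001; the kept peak nearest to that limit had p of 9.77e-05, and the lowest IP/input ratio among kept peaks was 2.03. With all deposited peaks, the mean change was -1.10.

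Bcl9l itself, a nuclear co-activator of β-catenin, had the most IP reads in exonic peaks of the 10 genes, in every list. Peaks covered 99.5, 98.7, 99.5 and 99.5% of its annotated exonic length in normal replicates 1 and 2 and starved replicates 1 and 2. The region over its last exons, chr9:44504811-44511940, held 10588 and 14714 IP reads in the normal and 42490 and 34484 in the starved replicates, with 2623, 4000, 5535 and 5777 input reads. IP and input counts, not scaled for depth, were both higher in the starved libraries, whose lists held more IP reads in all. The log2 fold was 1.70, 1.88, 1.72 and 1.99, a change of 0.02 and 0.11. The starved and normal values overlapped. This region also touched 154 bp of an exon of Cxcr5 on the other strand.

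Of the 7 regions called in all 4 lists that touched exons of Bcl9l, 4 had a higher fold in both replicates, 2 a lower fold in both and 1 changed in opposite directions. Over all regions 27.3% were higher and 25.3% lower in both. The 7 are parts of 1 gene, so nothing is read from these counts. The largest positive change was in a region that is mostly intron 1 and holds 57 bp of an annotated exon, chr9:44489511-44489950. It had 201, 139, 685 and 386 IP reads and 39, 62, 41 and 63 input reads in the order normal 1, normal 2, starved 1, starved 2. Its log2 fold went from 2.06 and 1.16 to 2.84 and 2.03, by 0.78 and 0.87, so that replicate 2 passed 1.8-fold and replicate 1 did not. Of the regions short of that limit, 0.85 on the log2 scale, it was the nearest; of the regions past it, the lincRNA region beside Bcl9l was the nearest, with a smaller change of -1.25. The starved value of replicate 2 lay below the normal value of replicate 1, so the groups overlapped.

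In exon 3 of Bcl9l the log2 folds were 2.27 and 1.68 in normal and 2.32 and 2.41 in starved cells, and here both starved values lay above both normal ones. A small region before an inner start of Bcl9l, with 51, 49, 337 and 146 IP and 8, 5, 32 and 27 input reads, changed by -0.19 in replicate 1 and -1.44 in replicate 2. Exon 4 changed by -0.52 and 0.79. The first exon, which overlaps the transcript Gm47205, still to be experimentally checked, on the other strand along its whole length, changed by -0.29 and -0.13, and the region over the inner first exon by 0.10 and 0.08. Of the remaining 5 regions named Bcl9l, 4 lay in introns and 1 touched 40 bp of an exon; each was called in 1 list, with 14 to 24 IP reads and at most 1 input read.

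Bcl9, the paralogue of Bcl9l, had 11 regions, all touching its exons, and 8 of them were called in all 4 lists. The largest by IP reads, over exon 8, held 899, 1529, 2447 and 2683 IP reads and 198, 413, 310 and 405 input reads, and its log2 folds of 1.87, 1.89, 1.76 and 2.14 overlapped between conditions. Over the last exon the changes were -0.08 and 0.15. The other called regions, in exons 2, 4, 5, 6, 7 and 9 as the deposited annotation numbers them, had mean log2 changes between -0.50 and -0.11. The lowest, over exon 7, had 61, 78, 145 and 151 IP and 15, 16, 26 and 30 input reads and changed by -0.46 and -0.54. Of the 8, 4 had a lower fold in both replicates, 0 a higher one in both, and 4 went opposite ways. Over all regions 25.3% were lower and 27.3% higher in both. The 8 are parts of 1 gene, so nothing is read from these counts. The other 3 regions of Bcl9 were called in fewer lists and held few reads. The one in exon 3, part of the 5′ UTR, was called in normal replicate 1 with 28 IP and 1 input reads and in starved replicate 2 with 49 and 4, so no pair of the same replicate could be compared. The one at the start of the gene was called in replicate 2 alone, with 60 IP and 6 input reads in normal and 68 and 8 in starved cells, a log2 change of -0.82. The one over 97 bp of an exon further upstream was called in starved replicate 1 alone, with 23 IP reads and no input read.

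Of the scaffolds of the destruction complex, Axin1 and Axin2 had no region called in all 4 lists. The region over exon 2 of Axin1 was called in both starved lists, with 1722 and 1289 IP reads and 249 and 331 input reads, and in neither normal list. Its log2 folds were 1.57 and 1.38. With the regions named Pdia2 included, exonic peaks of Axin1 held 715, 170, 4260 and 2924 IP reads over 32.8, 9.54, 80.1 and 72.5% of its exonic length, and the ratio within these peaks was 2.52, 3.33, 2.63 and 2.35. These ratios come from peaks called separately in each list, over different stretches, each of which had to reach a ratio of 2. The region at the start of Axin1 was called in 3 lists, with an IP/input fold of 3.41 in normal replicate 2, 3.33 in starved replicate 1 and 2.93 in starved replicate 2. Replicate 2, the only pair, had a log2 change of -0.22. Axin2, also a target gene of the pathway, had 1 region, in the 3′ UTR and in starved replicate 2 alone, with 19 IP reads and no input read, at least 4.22-fold over the floor of 3 input reads.

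Apc had 1 region called in all 4 lists, at its start, with log2 folds of 1.29 and 1.24 in normal and 1.06 and 2.26 in starved cells. The replicates went opposite ways, by -0.23 and 1.02. Its other 2 named regions were called in replicate 2 of both conditions alone: the one over exon 2 changed by -1.84, from 25 IP and 3 input reads in normal to 91 IP and 26 input reads in starved cells, and the third by -0.24. The normal value of the exon 2 region thus sits at the floor of 3 input reads. With the regions named Srp19, exonic peaks covered between 4.96 and 9.19% of the long Apc transcript in the 4 lists. Ctnnb1 was called at its start in normal replicate 1 and starved replicate 2, with 1277 and 1584 IP reads, 443 and 454 input reads and log2 folds of 1.22 and 1.22. A second Ctnnb1 region, in intron 1, was called in normal replicate 1 alone with 13 IP reads and no input read. A region in Ctnnb1 exons under the name Mir7090, chr9:120954911-120956160, was called in starved replicate 2 alone. It held 7255 IP and 2404 input reads, a log2 fold of 1.01.

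For the co-receptor Lrp6, 7 regions bore its name and 3 were called in all 4 lists. Exon 6 held 243, 377, 468 and 536 IP reads and 82, 175, 53 and 132 input reads, and its log2 fold was 1.26 and 1.11 in normal and 1.92 and 1.44 in starved cells, a change of 0.66 and 0.33. Both starved values lay above both normal values. Exon 4 changed by 0.16 and 0.06. The regions at exons 7 and 5 and at the start of the gene were called in all lists but normal replicate 1, and changed by -0.09, -0.19 and -0.06 in replicate 2. The region at exon 2 was called in normal replicate 2 with 30 IP and 5 input reads and in starved replicate 1 with 275 and 53, with log2 folds of 2.58 and 1.15 and no pair of the same replicate. The region at exon 3 changed by -1.42 and -0.22, but its normal replicate 1 value came from a peak with 27 IP and 2 input reads, a ratio of 10.9 with an interval of 2.74 to 94.5. Of the 4 Lrp6 regions called in all 4 lists under the name Bcl2l14, 1 was higher in both replicates, chr6:134468431-134469050, with changes of 0.75 and 0.70. Another 2 were lower in both, with changes of -0.24 and -0.17 and of -0.91 and -0.01, the latter from a normal replicate 1 peak with no input read. The fourth went opposite ways, with 0.36 and -0.15. Lrp5 had 3 regions under its name, none in all 4 lists, with log2 folds between 1.02 and 1.54, and 1 of those named Ppp6r3 was called in all 4, with changes of 0.25 and -0.04. By exons, peaks covered 27.0 and 17.7% of the Lrp5 transcript in the normal lists and 4.97 and 10.2% in the starved lists, with 1759, 833, 528 and 665 IP reads, so that here the normal lists covered more. The ratio within these peaks, again over different stretches, was 2.18, 2.42, 2.41 and 2.15.

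**Figure D3:**
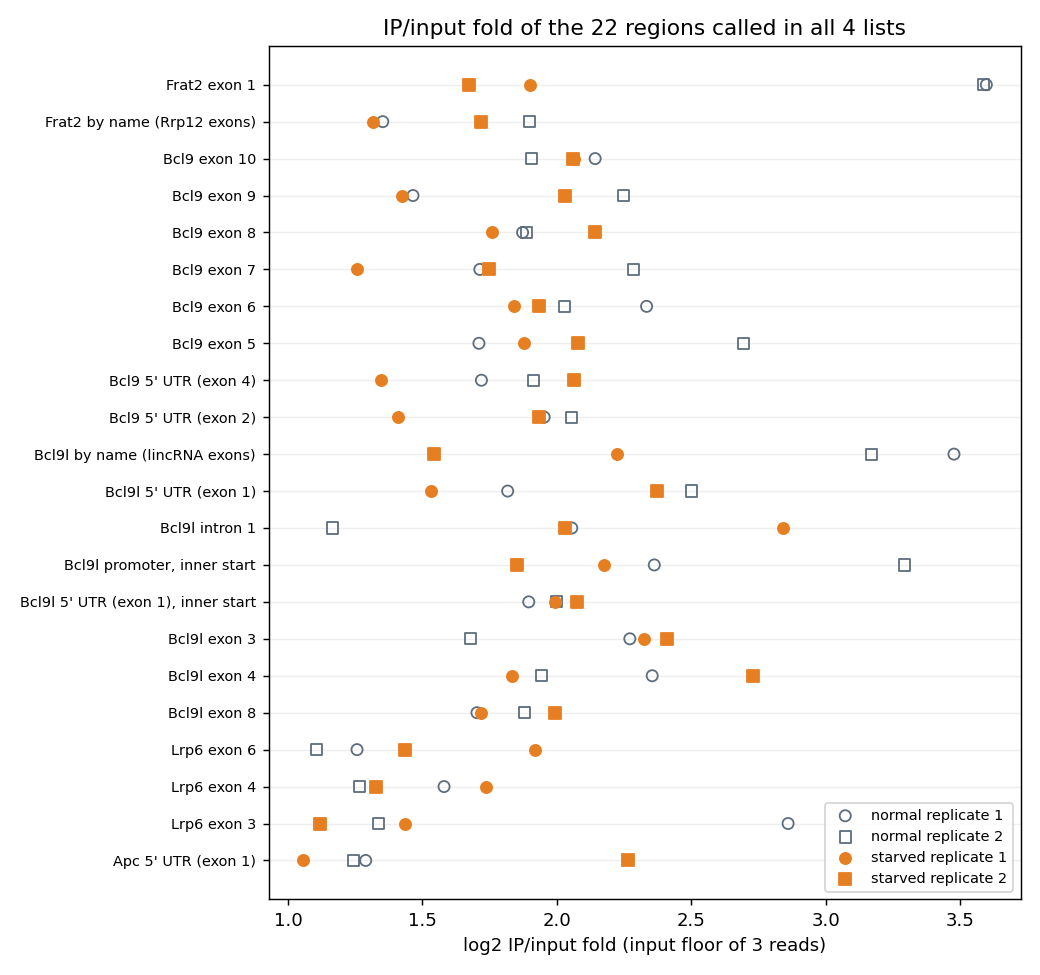
Log2 IP/input fold of the 22 regions called in all 4 lists, 1 row a region, with open symbols for normal and filled symbols for starved libraries, circles for replicate 1 and squares for replicate 2. The Frat2 exon and the region named Bcl9l in lincRNA exons have their normal values at 3.17 or above and their starved values at 2.22 or below; in most other rows the symbols mix.

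Over the 22 regions, 2 fell at least 1.8-fold in both replicates, the Frat2 exon and the lincRNA region beside Bcl9l, and 0 rose by as much. Over all 6531 regions 0.352% fell and 0.367% rose by that measure. A fall of any size in both replicates was found in 10 regions and a rise in 6, where all regions gave 25.3% and 27.3%. Both starved folds lay below both normal folds in 5 regions and above in 2, against 13.6% and 14.7% of all regions. As the genes were chosen on this contrast, nothing is read from these counts. The mean log2 change had a median of -0.11 over the 22 regions and 0.013 over all regions. With regions assigned to the genes by exons instead of by name, 25 regions entered, 1 of them fell 1.8-fold in both replicates, and the median was 0.037.

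**Figure D4:**
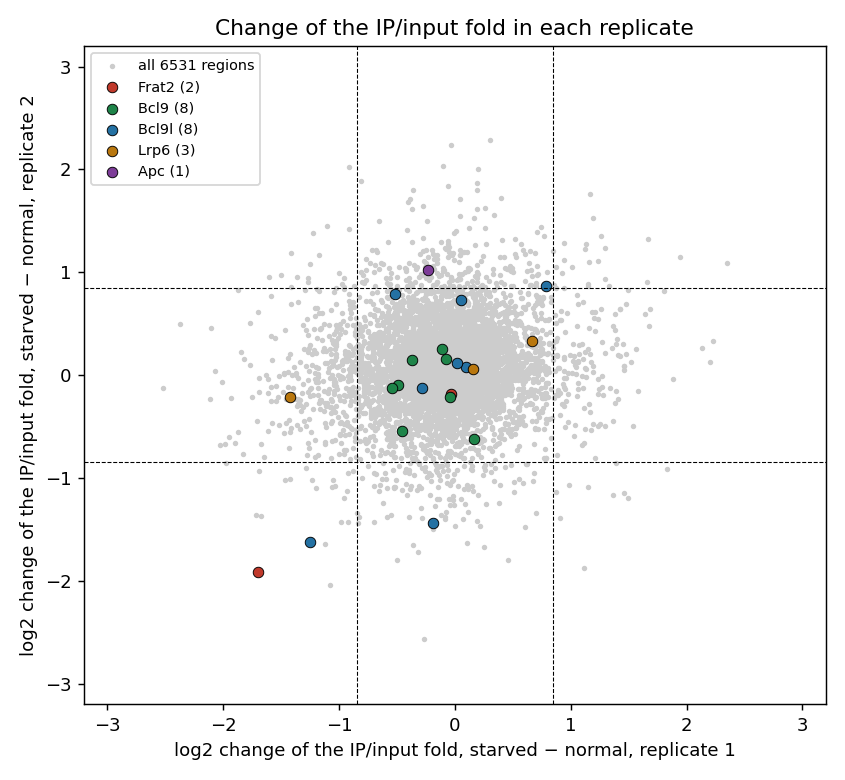
Log2 change of the IP/input fold, starved minus normal, in replicate 1 (x axis) and replicate 2 (y axis) for all 6531 regions in grey and the 22 regions of these genes in colour, with dashed lines at 1.8-fold; 2 regions of other genes lie beyond the axes. Of the coloured points, 1 of Frat2 and 1 named Bcl9l lie in the lower left corner, where both replicates fell by more than 1.8-fold.

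The IP/input ratio of each region was also compared with edgeR, whose quasi-likelihood test used the reads of both replicates over all 6531 regions with Benjamini-Hochberg adjustment. It called 0 of the 22 regions at an adjusted p of 0.05, and 0.0153% of all regions. At an unadjusted p of 0.05 it gave 1 region that rose and 1 that fell, where all regions gave 2.8%; these were the Bcl9l intron 1 region and the Frat2 exon. DESeq2 called 0 of the 22 at an adjusted p of 0.05, 0.0153% of all regions, and gave 1 that fell at an unadjusted p of 0.05, where all regions gave 0.551%. The smallest adjusted p of edgeR among the 22 was 0.52, for the Frat2 exon, with a log2 change of -2.74 and a standard error of 0.60 for the summed reads. Since the region was chosen for its change in these libraries, this p is no independent test of it.

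IP and input reads were also viewed separately. Reads per base of each library were set against the median over all regions called in all 4 lists, since library depth is unknown. IP reads per base were higher in starved cells in both replicates in 16 of the 22 regions, against 34.9% of all regions, and input reads per base in 16, against 33.4%. These counts come from the contrast used to choose the genes and from regions that share transcripts, so they describe a few RNAs and not 22 separate cases. Most of the regions counted bore the names Bcl9l and Bcl9, with 13 of 16 for IP and 14 of 16 for input, against 3 and 2 of the 6 regions under other names. The Apc start region had IP differences of -0.37 and 0.11 and input differences of -0.17 and -0.81 in replicates 1 and 2, and the region over the end of Rrp12 differed by -0.44 and 0.27 for IP and by -0.43 and 0.40 for input. By 1.8-fold in both replicates, IP reads per base were higher in 4 regions, against 1.07% of all regions, and input reads per base in 3, against 2.79%. The 3 with higher input were the Frat2 exon, the first exon of Bcl9l and the region before its inner start, and the fourth, with higher IP alone, was in intron 1 of Bcl9l.

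For Bcl9l, IP reads per base were higher in starved cells in both replicates in 7 of 7 exonic regions, by 0.59 to 1.66 on the log2 scale, and input reads per base in 6 of 7. Over its last exons, IP was higher by 1.24 and 0.80 and input by 1.20 and 0.79. For Bcl9, IP was higher in both replicates in 5 of 8 regions and input in 7 of 8, with log2 differences between -0.18 and 0.82 for IP and between -0.23 and 1.45 for input. For the Frat2 exon, IP was higher by 1.22 and 1.66 and input, with 3 reads set as the least, by 2.91 and 4.20. For exon 6 of Lrp6, IP differed by -0.01 and -0.18 and input by -0.71 and -0.41, its higher fold thus went with lower input. None of these differences has a test of its own.

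**Figure D5:**
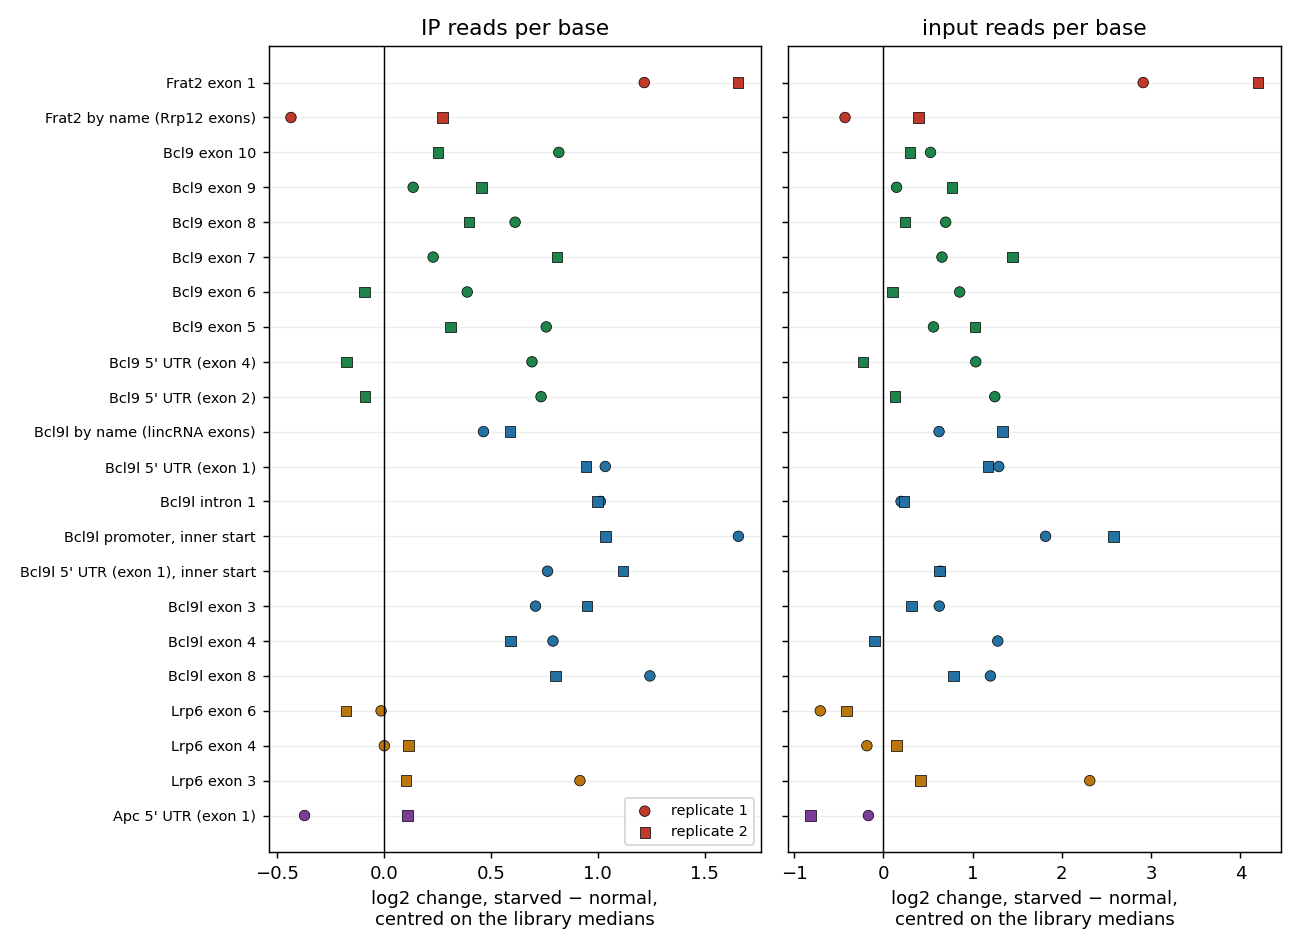
Log2 change of IP reads per base (left) and input reads per base (right), starved minus normal and centred on the library medians, for the 22 regions, with circles for replicate 1 and squares for replicate 2. The rows of Bcl9l lie to the right of 0 in the left panel in both replicates, and the input of the Frat2 exon, computed with the floor of 3 reads, lies furthest right at 2.91 and 4.20.

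Most regions outside the common set were seen in few lists. Of the 33 member regions called in fewer than 4 lists, 12 were in 1 list, 13 in 2 and 8 in 3. Of the 33, 11 were called in starved lists and in no normal list (33.3%), and 3 in normal lists and no starved list (9.09%). Over all regions called in fewer than 4 lists these shares were 40.6% and 25.1%. By name, only the end of the Frat1 3′ UTR and exon 2 of Axin1 were called in both starved lists and in neither normal list. Exonic regions under other names also did so: chr19:3609831-3610300 in Lrp5, with 94 and 161 IP reads, and chr6:134486281-134486800 in Lrp6, with 176 and 220. The reverse was seen at chr19:3597171-3597580 and chr19:3622381-3622840 in Lrp5 and chr6:134454541-134454940 in Lrp6. How often either pattern occurred over all regions was not counted, so nothing about these genes is read from the cases listed.

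The regions whose 4 folds were nearest to those of the Frat2 exon, by the root mean square difference of the log2 folds over the 4 libraries, were one named Gm28535 in exons of Pask (0.28), one in Amz1 (0.39) and one in Bhlhe22 (0.40). Nearest to the lincRNA region beside Bcl9l were the same Pask region (0.19), one in Zbtb42 (0.26) and one named Hipk4 in exons of Prx (0.36). The Pask region had log2 folds of 3.69, 3.04, 1.97 and 1.68, with 14, 24, 40 and 77 input reads. These regions were picked for their likeness, so their fall adds nothing to that of Frat2.

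Of 83 other genes of the pathway, 59 had a region by name and 21 had one called in all 4 lists, 57 regions together. By the 1.8-fold measure 1 of the 57 rose and 0 fell, where 0.367% of all regions rose and 0.352% fell. At an adjusted p of 0.05 edgeR and DESeq2 each called 0 of them and 0.0153% of all regions. At an unadjusted p of 0.05 edgeR gave 2 that rose and 0 that fell, where 2.8% of all regions passed in either direction. DESeq2 gave 0 at that limit, where 0.551% of all regions passed. Nothing is read from these few calls. The region that rose by 1.8-fold was in Wnt2b, a ligand, with log2 folds of 1.27 and 1.13 in normal and 2.43 and 2.23 in starved cells, from 84, 120, 214 and 232 IP reads and 28, 55, 17 and 33 input reads. Among ligands and secretion factors 8 of 15 genes had a region, and the region with the most IP reads was in Wnt5a, with changes of -0.47 and -0.04. Among receptors 13 of 16 had one, and the largest region by IP reads of the whole list was in Fzd7, a Frizzled receptor, with changes of -0.05 and 0.06.

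Extracellular and membrane inhibitors had a region in 7 of 15 genes, and their 7 regions called in all 4 lists had a median log2 change of -0.40, with 5 lower in both replicates and 1 higher, where all regions gave 25.3% and 27.3%. Of the 7, 6 bore the name Kremen1, among them all 5 that were lower, and 3 of the 6 touched no Kremen1 exon. Their largest region by IP reads bore the name of Kremen1, a receptor for Dickkopf inhibitors, but lay in exons of Znrf3, a ubiquitin ligase that removes Frizzled receptors; it changed by 0.16 and 0.32. By the same measure ligands had 6 of 16 regions higher and 3 lower, receptors 2 of 12 higher and 5 lower, cytoplasmic transducers 7 of 13 higher and 2 lower, and nuclear partners 3 of 9 higher and 0 lower. These regions bore the names of 4, 7, 3 and 5 genes in that order, so they are not separate cases. Among cytoplasmic transducers 15 of 18 genes had a region, and the largest, in the tankyrase gene Tnks, was called in 3 lists. Nuclear partners had a region in 14 of 16 genes, and the largest, in Pygo2, the Pygopus protein that Bcl9 binds, was called in replicate 1 of both conditions, with a change of -0.13. Of 8 target genes 3 had a region, and Znrf3 had the only one called in all 4 lists, with changes of -1.25 and 1.08.

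GGAC was searched only on the strand of the gene with the most exonic bases in each region. For the region over the first exon of Bcl9l this was Gm47205, on the strand opposite to Bcl9l. In the 200 bp at the centre of each region it was found in 11 of the 22 regions (50.0%) and in 61.8% of the 6460 regions that lay in an annotated exon. In the central 100 bp it was found in 9 of 22 (40.9%), against 40.0%, and in whole regions in 20 of 22, against 93.8%. The Frat2 region held 13 GGAC over its length, 8.97 per kb, and the region over the last exons of Bcl9l held 34, or 4.77 per kb. The lincRNA region held 9 on the plus strand, or 3.33 per kb. The median was 4.61 per kb over the 22 regions and 4.09 over all regions, at a median GC content of 53.9% and 52.4%. Of the 55 regions, 1 had a near-identical copy of at least 100 bp elsewhere in the genome: the end of the Frat1 3′ UTR matched 209 bp of chromosome 5 at 95.7% identity.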

How the data were processed

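YTHDF3 RIP-seq libraries of MEFs (2 normal and 2 starved IP libraries, each with an input) were analysed from 4 deposited peak lists. The authors used Trimmomatic for trimming and Tophat 2.0.13 for alignment to mm10, called peaks of each IP library against input with diffReps and named them with HOMER. Per the file headers, the lists hold IP and input values (a signal: reads multiplied by 1 factor per library; the authors deposited whole read counts for normal replicate 2), the log2 ratio of both and p-values. Whole reads were recovered by dividing by the factor, and 100% of values were whole within 5% of 1 read. The lists do not name their input; the input of the same condition and replicate is assumed.

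Peaks with an IP/input ratio of at least 2 and p under 0.0001 were kept and merged. Samples were grouped by their labels, and starved was compared with normal of the same replicate number. edgeR 4.0.16 (quasi-likelihood, TMM, 1 term per pair of IP and input libraries, Benjamini-Hochberg; R 4.3.3) and DESeq2 1.42.0 tested the change of the IP/input ratio over all 6531 regions; the edgeR script was tested on simulated data. Exons came from GENCODE, sequences from GRCm38 (62 of 62 transcripts of these genes were identical to the genome), and copies from blastn 2.17.0. Other steps ran in Python 3.11.15 (scipy 1.17.1, pysam 0.24.0, numpy 2.4.6, pandas 2.3.3). Alternatives covered the fold of a region, floors, filters, overlap, scaling, normalization, a replicate block and leaving out replicates. The members, the lists of other genes, the markers and the tests were chosen with earlier results of these data known. All regions that bear the name of 1 of the 10 genes are covered, while those in their exons under another name are described only in part. Also named are the 3 nearest patterns of the Frat2 and Bcl9l regions. Of the other Wnt genes, the changed regions and per role the one with the most IP reads are named. MeRIP-seq and other experiments are not analysed here.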

Additional observations from a re-analysis of the deposited data

How the results depend on the processing

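The fall of the Frat2 region kept its direction under 10 of 12 alternatives and that of the region named Bcl9l under 10 of 12. For Frat2 the mean log2 change was -2.08 with reads summed over the region, -2.89 with an input floor of 1 read and -2.19 with 1 read added to IP and input, and -1.91 to -1.70 with either replicate left out; for the region named Bcl9l it was -0.42 with summed reads, -0.91 with the length-weighted mean, -1.10 with all deposited peaks and -1.63 to -1.25 with either replicate left out. IP reads per base gave 1.44 for Frat2, 0.53 for the Bcl9l-named region and 0.52 for the median of the members, and input reads per base gave 3.55, 0.98 and 0.54. The median of the members, -0.11, was 0.067 with 50% reciprocal overlap and 0.037 with members by exons, and -0.15 to -0.02 with either replicate left out.

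The count of 2 regions that changed 1.8-fold was 1 with summed reads, 1 with the length-weighted mean, 4 for IP reads per base, 1 with members by exons, 0 at an IP/input of at least 4 and 0 with 50% reciprocal overlap, since neither region was then called in all 4 lists; in single replicates it was 3 to 5. At an IP/input of at least 4, 0 member regions were called in all 4 lists, so no median could be had. GGAC was in 9 regions within the central 100 bp and in 20 over their whole length, and 22 regions had at least 50% of their length in exons of the named gene. Centring on library medians turned the split of all changed regions from 24 higher and 23 lower into 20 higher and 27 lower.

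The edgeR count was 0 under every alternative: DESeq2, no TMM, a filter at 20 IP reads, and leaving out each replicate, where the smallest adjusted p of a member was between 0.22 and 0.79 and the lone replicate of its condition is assumed to vary like the others. With a replicate block it was 0 too, with 2 regions that rose and 1 that fell at an unadjusted p of 0.05, where 386 of all regions (5.91%) passed against 183 (2.8%) without the block. The labels tie the replicate numbers to no shared animal, batch or day and there are only 2 of them, so the edgeR model did not pair them. The changes per replicate, the counts over both replicates and the 1.8-fold measure do match starved to normal by that number. They therefore depend on the numbering, while statements that both starved folds lay below or above both normal folds do not. That the differences of replicate 2 from replicate 1 correlated between conditions, with r of 0.27 across regions, is a hint from the data that same-numbered replicates vary together. The log2 changes with starvation of replicate 1 and replicate 2 correlated with r of 0.13 across the same regions. The change in either replicate was thus a weak guide to that in the other. The replicate block changed no other call. Floors on the deposited scale and peaks on the stretch common to all lists were added after the data were seen and moved neither fall by more than its spread. For Frat2 the peaks on that stretch were the highest peaks already used, so this setting, counted among the alternatives above, could not move its value. For the region named Bcl9l they differed from the highest peaks in starved replicate 2 alone. Depth is unknown, and 22 of the 166 peaks of these genes had 3 input reads or fewer, which limits every fold that rests on them.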
